A study of Homo sapiens with 6 samples.

Results

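The 36 genes described here are direct transcriptional targets of the tumor suppressor p53, chosen by symbol from a fixed list. Each matched 1 row of a table that holds 57820 genes. RNA was measured in M14, a human melanoma cell line that stably carries an inducible shRNA against STAG2, a subunit of the cohesin complex that organizes chromatin loops. All 6 libraries came from this line, grown under puromycin. STAG2-KD cells (KD, 3 libraries) received doxycycline for 5 days to switch the shRNA on, and wild type cells (WT, 3 libraries) carried the same shRNA and received none. A doxycycline-treated line without the STAG2 shRNA was not analysed here, so the effect of STAG2 loss and that of the drug cannot be told apart, and a single shRNA was used. The labels do not say whether the replicates were separate cultures, while the study describes its replicates as biologically independent samples, and p-values measure the spread between these libraries.

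The libraries held 24895998, 35181733 and 29157038 expected counts in WT replicates 1, 2 and 3, against 30143957, 31155103 and 33089945 in the KD replicates. Levels are given in CPM, expected counts scaled to library size after TMM normalization (trimmed mean of M-values). A floor of 3 counts lay between 0.087 and 0.112 CPM per library on this scale, and it covers counting error only. STAG2 (chrX:123094062-123556514, GRCh37, plus strand) was at 66.5, 34.8 and 28.8 CPM in WT and at 16.0, 7.31 and 6.70 CPM in KD. It fell by 2.12 on the log2 scale (SE 0.43, adjusted p = 0.0342, by edgeR's quasi-likelihood test, adjusted by Benjamini-Hochberg over the 15605 tested genes). This adjusted p was 0.168 without KD replicate 2, 0.152 without KD replicate 3, 0.0757 without WT replicate 2 and 0.0652 without WT replicate 3.

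Replicate 1 stood apart from replicates 2 and 3 in both conditions. WT replicate 1, with the fewest expected counts, had counts in 20646 genes, and the other libraries in 16028 to 17995. The summed level of 10 melanocyte markers, all of them detected and PMEL the most abundant, was 6411, 1973 and 1929 CPM in WT and 2682, 1334 and 1270.1 CPM in KD. Their median log2 fold change was -0.93. S100B was called lower by edgeR, and with the replicate number as a block 7 markers were lower and 1, PAX3, was higher. Of 12 markers of blood, endothelial, fibroblast and epithelial cells found in the table, 7 passed the filter on low counts and 0 were called by edgeR, with 0 at an unadjusted p under 0.05. Their sum was 9.43, 101 and 69.1 CPM in WT and 5.26, 28.8 and 26.5 CPM in KD, COL1A1 being the most abundant and CD3E at 0 in every library. With the replicate block COL1A1 was called lower, with a log2 fold change of -1.67 (adjusted p = 0.00232). The part of these differences between replicates in the results below was not tested. Libraries that share a number also moved together, as did replicates 2 and 3 across numbers. Whether same-numbered libraries are pairs is not known. Values from the fit with the replicate block are given for the genes below whose call it changes.

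The p53 protein is a transcription factor that is held low by MDM2 and accumulates when cells are stressed. It binds a response element made of adjoining decamers and switches on genes that stop the cell cycle, repair DNA, adjust metabolism or start apoptosis, together with genes such as MDM2 that shut p53 off again. Many of these genes also answer to other regulators. CDKN1A, GADD45A and PLK3 can be induced without p53, and GDF15, BBC3 and PMAIP1 are also known targets of the ATF4 stress pathway. The activity of p53 was not tested here.

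Matches to the p53 response element are shown for some of the members whose levels are described below. They set the DNA of genes that were called beside that of genes that were not called. Other uncalled members with a match, such as CCNG1 and DDB2, are not shown. The search covered 5 kb on either side of the start of 1 representative transcript per gene in GRCh37, and positions below refer to that transcript. It asked for the p53 response element consensus of 20 bases without a spacer, with the C and G of each decamer's core fixed and at most 2 other mismatches. The consensus reads the same on both strands. A match was present in 17 of 36 members (47.2%) and in 992 of 12887 tested protein-coding genes (7.7%). At most 1 mismatch was found in 8 members (22.2%) and 138 of those genes (1.07%). These are matches of letters, not binding sites measured in these cells. Capitals mark the core letters of each decamer, and each run is written on the strand of its gene. The first 4 belong to genes called higher in KD without or with the replicate block, and the other 4 to genes that were not called.
GADD45A: gaaCATGtctaagCATGctg
CDKN1A: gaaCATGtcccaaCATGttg
GDF15: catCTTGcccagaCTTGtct
AEN: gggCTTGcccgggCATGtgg
MDM2: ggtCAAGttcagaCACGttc
PLK2: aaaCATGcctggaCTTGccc
ZMAT3: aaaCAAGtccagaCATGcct
BAX: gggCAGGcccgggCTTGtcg
The GADD45A run lies at chr1:68152458-68152477 on the plus strand, in intron 3, and has 1 mismatch. The CDKN1A run, with 2 mismatches, lies at chr6:36644226-36644245 on the plus strand, before the start of its representative transcript and across the first annotated base of the gene. The GDF15 run (chr19:18496118-18496137, plus strand, 2 mismatches) lies before the start of the representative transcript and inside the annotated gene, which includes longer transcripts. The AEN run (chr15:89164537-89164556, plus strand, 2 mismatches) lies just before the annotated gene. The MDM2 run is in intron 1 at chr12:69202703-69202722 on the plus strand, as is that of BAX at chr19:49458470-49458489, and both have 2 mismatches. The only members with 0 mismatches were PLK2, before the start of the transcript at chr5:57758101-57758120 on the minus strand, and ZMAT3, in intron 1 at chr3:178787976-178787995 on the minus strand. PLK3, BTG1 and CYFIP2 held no match within the window.

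Of 16 tested members with a match, 2 (12.5%) were called higher without the replicate block and 4 (25%) with it, with a median log2 fold change of 0.26. Of 19 members without one, 2 (10.5%) were called higher without the block and 3 (15.8%) with it, with a median of -0.08. Over all tested genes, 1.75% were called higher without the block and 5.1% with it. The difference between members with and without a match was not tested. In RefSeq promoters (GRCh38.p14, 300 bases, found for 32 members), the ATF4-type motif TGATGNAA, searched on both strands, occurred in 1 member, PLK3 (3.12%), and in 3.67% of 27305 promoters. GADD45A, PHLDA3, RRM2B and TP53INP1 had no promoter among these and were not searched.

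Upon STAG2 knockdown, 4 of the 35 tested p53 targets were higher and 0 were lower at an adjusted p under 0.05. SPATA18 had no counts in any library and could not be tested. The 4 genes, GADD45A, CDKN1A, PLK3 and BTG1, were all listed under cell cycle arrest. Each member was listed under 1 role, and the lists were chosen with earlier results of these data known. These 4 genes made up 11.4% of the tested members, where 1.75% of 15605 tested genes were called higher and 0.839% lower. At an unadjusted p under 0.05, edgeR gave 9 members (25.7%, against 14.8% of all tested genes), of which BBC3 and ZMAT3 were lower, and DESeq2 and limma-voom also called 0 members lower. These tools each called 5 members higher, the 4 above and GDF15. Over all 15605 tested genes, DESeq2 called 979 and limma-voom 412, either way. With the replicate block 7 members were higher (20%) and 0 lower, against 5.1% and 4.42% of all tested genes, the added ones being GDF15, CYFIP2 and AEN. The count of members was 2 without WT replicate 2, KD replicate 2 or KD replicate 3. In these fits 177 of 16536, 146 of 16598 and 121 of 16515 tested genes were called, either way. The count was 7 without WT replicate 1, where 531 of 16509 tested genes were called. GADD45A and PLK3 were called in every setting tried.

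Log2 fold changes of the members ran from -1.90 to 3.09. The median log2 fold change of the tested members was 0.17, beside -0.03 over all tested genes, with 20 members above 0 and 15 below. In 11 members (31.4%) all KD libraries were above all WT libraries (11.8% of all tested genes), and in 2 members (5.71%) all were below (10.5% of all tested genes). The 2 lower ones were BBC3 and FDXR. The summed level of the members was 1229, 979 and 1015 CPM in WT and 2055, 2129.8 and 1904 CPM in KD, and GDF15 was the most abundant of them.

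**Figure D1:**
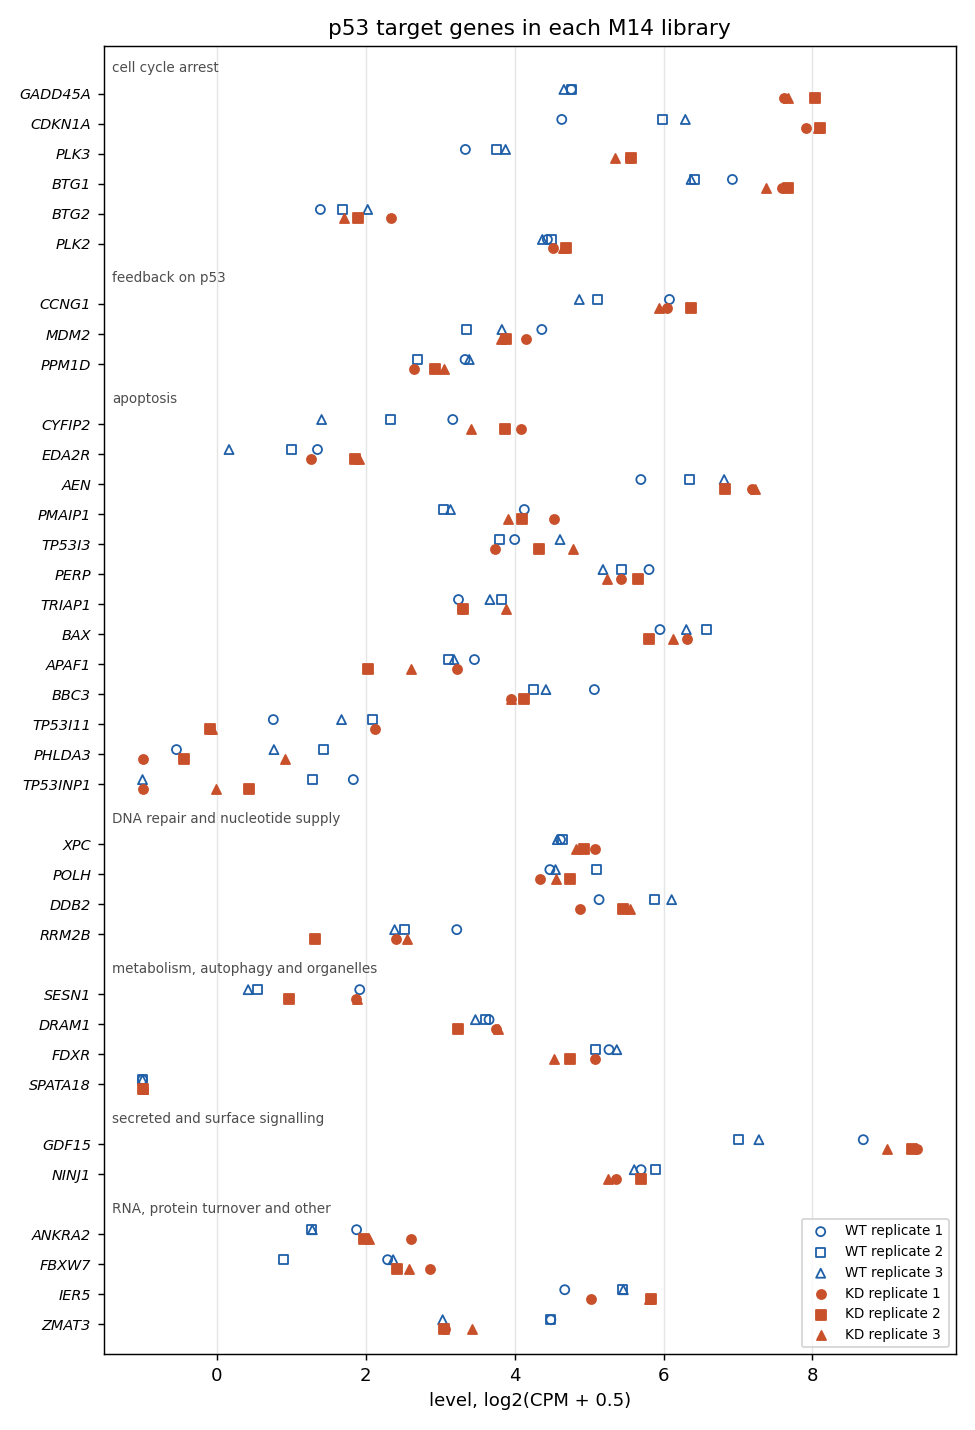
Level of each p53 target gene in each library, as log2(CPM + 0.5), with open blue marks for WT, filled orange marks for KD, a marker shape for each replicate number, and genes grouped by role. The KD marks of GADD45A, CDKN1A, PLK3 and BTG1 lie to the right of all WT marks, while MDM2, BAX and most apoptosis genes overlap.

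The largest change was in GADD45A (chr1:68150884-68154017, plus strand), which encodes a small protein that slows entry into mitosis and acts in stress signalling and DNA repair. Its level was 26.6, 26.6 and 24.8 CPM in WT and 196, 262 and 204 CPM in KD. The WT libraries lay close together and the KD libraries were all far above them. GADD45A rose from 26.0 ± 1.04 to 221 ± 36.2 CPM (SD, n = 3), a log2 fold change of 3.09 (SE 0.20, adjusted p = 5.21e-05, edgeR), or 8.49-fold. Leaving out any single library moved this value between 2.94 and 3.17.

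CDKN1A (chr6:36644237-36655114, plus strand) encodes p21, the inhibitor of cyclin-dependent kinases through which p53 blocks the cell cycle. Its level was 24.3, 62.8 and 77.9 CPM in WT and 241, 273 and 269 CPM in KD. WT replicate 1 had the lowest value, and the conditions did not overlap. CDKN1A rose by a log2 fold change of 2.25 (SE 0.37, adjusted p = 0.0139, edgeR), or 4.74-fold. The adjusted p was 0.0622 without KD replicate 2, 0.0669 without KD replicate 3 and 0.0522 without WT replicate 2, and without replicate 1 of both conditions the change was 1.95 (adjusted p = 0.00133). Its exons overlap those of DINOL on the opposite strand, and the strand setting of the counting is not given in the sources used here.

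PLK3 (chr1:45266049-45271662, plus strand), a stress-responsive kinase of the polo-like family, was at 9.61, 13.0 and 14.2 CPM in WT and at 46.3, 46.8 and 40.3 CPM in KD. The KD libraries were all above the WT libraries. PLK3 rose by a log2 fold change of 1.86 (SE 0.24, adjusted p = 0.00321, edgeR), or 3.62-fold. Its exons overlap the opposite-strand gene DYNLT4, whose expected counts averaged 0 in WT and 17.7 in KD.

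BTG1 (chr12:92534054-92539622, minus strand), an antiproliferative gene whose product helps shorten mRNA tails, was at 121, 84.9 and 82.2 CPM in WT and at 193, 203 and 166 CPM in KD. The conditions did not overlap, and replicate 1 was the highest WT library. BTG1 rose by a log2 fold change of 0.96 (SE 0.21, adjusted p = 0.0488, edgeR), or 1.95-fold. Its adjusted p was 0.057 with upper-quartile scaling, 0.132, 0.199 and 0.164 without KD replicates 1, 2 and 3, and 0.189 and 0.197 without WT replicates 2 and 3. With the replicate block the change was 0.98 (adjusted p = 0.00416).

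The other 2 arrest genes are relatives of these. PLK2, a kinase of the same family as PLK3 and the owner of a p53 element match without a mismatch, was at 21.2, 22.1 and 20.2 CPM in WT and at 22.3, 25.4 and 24.5 CPM in KD. Its KD libraries were all slightly above the WT libraries, with a log2 fold change of 0.19 (SE 0.22, adjusted p = 0.792, edgeR). BTG2, the paralog of BTG1, had a log2 fold change of 0.32 (SE 0.52, adjusted p = 0.859) at levels from 2.12 to 4.57 CPM, with overlapping conditions.

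**Figure D2:**
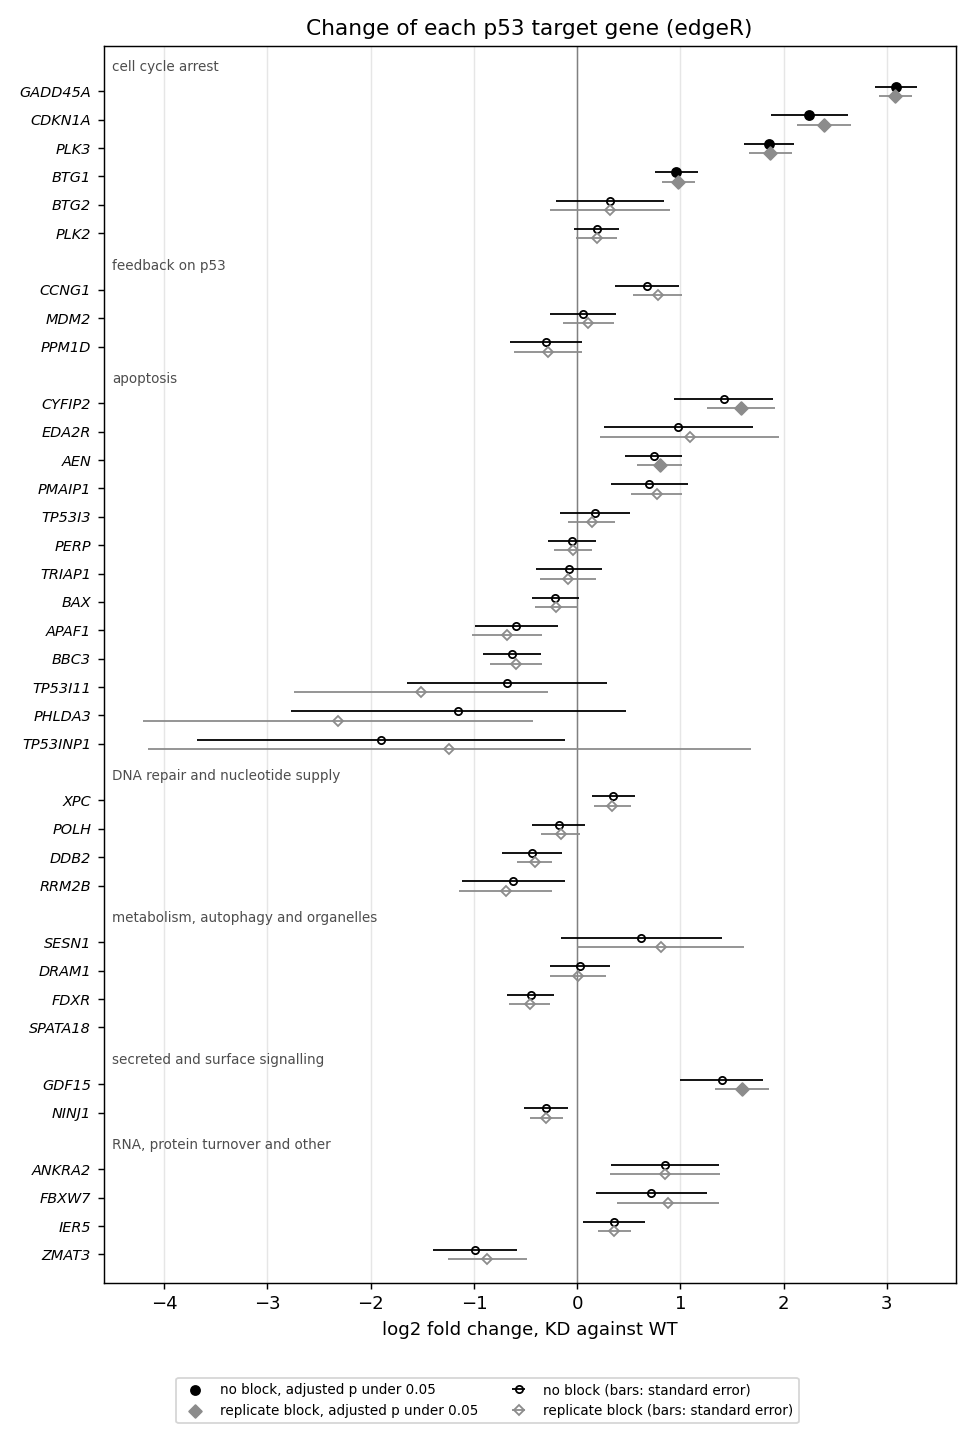
Log2 fold change of each tested p53 target gene in KD against WT with its standard error, without (black circles) and with (gray diamonds) the replicate block, filled where the adjusted p is under 0.05. GADD45A at 3.09, CDKN1A at 2.25, PLK3 at 1.86 and BTG1 at 0.96 pass in both fits, and GDF15, CYFIP2 and AEN pass with the block.

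None of the 3 feedback genes was called by edgeR, without or with the block. At an unadjusted p under 0.05 there were 0 without the block and 1, CCNG1, with it, against 2302 and 3574 of 15605 tested genes. MDM2 (chr12:69201957-69239324, plus strand), the ubiquitin ligase that degrades p53 and itself a classical target, was at 20.1, 9.72 and 13.7 CPM in WT and at 17.3, 14.2 and 13.6 CPM in KD. The KD values lay within the range of the WT values. Its log2 fold change was 0.06 (SE 0.32, adjusted p = 0.968) and turned to -0.17 without WT replicate 2 and -0.05 without KD replicate 1. The exons of MDM2 overlap an opposite-strand gene that is also named CPM, whose expected counts averaged 295 in WT and 99.1 in KD. CCNG1, encoding cyclin G1, which recruits a phosphatase to MDM2, was at 67.1, 34.1 and 28.7 CPM in WT and at 65.4, 82.3 and 60.7 CPM in KD. WT replicate 1 lay among the KD libraries, and the log2 fold change was 0.68 (SE 0.31, adjusted p = 0.356). Without WT replicate 1 it was 1.14 (SE 0.22, adjusted p = 0.0244), and without replicate 1 of both conditions 1.20 (SE 0.22, adjusted p = 0.0234). PPM1D, the phosphatase WIP1 that switches off p53 signalling, had a log2 fold change of -0.30 (SE 0.35, adjusted p = 0.795).

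The apoptosis genes did not move together. Of 13 members in this group, edgeR called 0 without the block and 2, CYFIP2 and AEN, with it. At an unadjusted p under 0.05 there were 3 (23.1%) without the block, against 14.8% of all tested genes. The median log2 fold change of the 13 members was -0.08, with 5 genes above 0 and 8 below. CYFIP2 (chr5:156693089-156822603, plus strand), a component of the WAVE actin-regulatory complex, was at 8.49, 4.55 and 2.15 CPM in WT and at 16.4, 14.1 and 10.2 CPM in KD. The conditions did not overlap, but the WT libraries were widely spread. Its log2 fold change was 1.42 (SE 0.48, adjusted p = 0.189) without the block and 1.59 (SE 0.33, adjusted p = 0.015) with it. Without WT replicate 1 the adjusted p was 0.0438, and without replicate 1 of both conditions the change was 1.86 (adjusted p = 0.0633).

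AEN (chr15:89164568-89175512, plus strand), a nuclease that digests DNA and RNA during apoptosis, was at 51.3, 80.9 and 112 CPM in WT and at 146, 113 and 149.9 CPM in KD. WT replicate 3 and KD replicate 2 were almost level, although the conditions did not overlap. The log2 fold change was 0.74 (SE 0.28, adjusted p = 0.243) without the block and 0.80 (SE 0.22, adjusted p = 0.0451) with it. It was 0.49 (adjusted p = 0.287) without WT replicate 1 and 0.45 (adjusted p = 0.305) without replicate 1 of both conditions.

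The best known effectors of p53-dependent cell death were not among the called genes. BBC3, encoding the BH3-only protein PUMA, was at 33.1, 18.6 and 20.9 CPM in WT and at 14.9, 16.9 and 14.9 CPM in KD. Every KD library was below every WT library, with a log2 fold change of -0.63 (SE 0.28, adjusted p = 0.334). The highest library was WT replicate 1, and the change was -0.34 (adjusted p = 0.547) without that library and -0.30 (adjusted p = 0.55) without replicate 1 of both conditions. BAX, which permeabilizes the mitochondrial outer membrane, was at 61.4, 95.2 and 78.6 CPM in WT and at 79.1, 55.4 and 69.5 CPM in KD. The conditions overlapped, and the log2 fold change was -0.21 (SE 0.23, adjusted p = 0.779). PMAIP1, encoding the BH3-only protein NOXA, had a log2 fold change of 0.70 (SE 0.37, adjusted p = 0.431). Without WT replicate 1 that of PMAIP1 was 1.15 (SE 0.30, adjusted p = 0.0822). APAF1, the scaffold of the apoptosome, had a log2 fold change of -0.59 (SE 0.40, adjusted p = 0.588). It was -0.98 (SE 0.41, adjusted p = 0.343) without KD replicate 1.

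Other members of the group were also not called. TP53I3, an oxidoreductase, had a log2 fold change of 0.17, and the membrane protein PERP one of -0.05. TRIAP1, an inhibitor of apoptosis, was at -0.08, and EDA2R, a receptor of the TNF receptor family, was at 0.98 with an SE of 0.72. The 3 apoptosis genes with the most negative log2 fold changes were expressed at low levels. TP53INP1, a regulator of p53 phosphorylation and autophagy, was at 3.06, 1.94 and 0 CPM in WT and at 0, 0.846 and 0.49 CPM in KD. PHLDA3, an inhibitor of AKT signalling, was at 0.186, 2.2 and 1.2 CPM in WT and at 0, 0.237 and 1.38 CPM in KD. TP53I11 was at 1.19, 3.74 and 2.69 CPM in WT and at 3.86, 0.44 and 0.459 CPM in KD. Libraries of 1 condition differed widely in these genes, and the log2 fold changes of -1.90, -1.15 and -0.68 had standard errors of 1.78, 1.62 and 0.97. For TP53I11, KD replicate 1 stood far above the other KD libraries, and the change was -2.48 (SE 0.92, adjusted p = 0.286) without it and -2.82 (SE 0.81, adjusted p = 0.104) without replicate 1 of both conditions. Without replicate 1 of both conditions, TP53INP1 was at -0.54 (SE 1.89, adjusted p = 0.937). PHLDA3 ranged from -3.30 without KD replicate 3 to -0.36 without WT replicate 2.

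**Figure D3:**
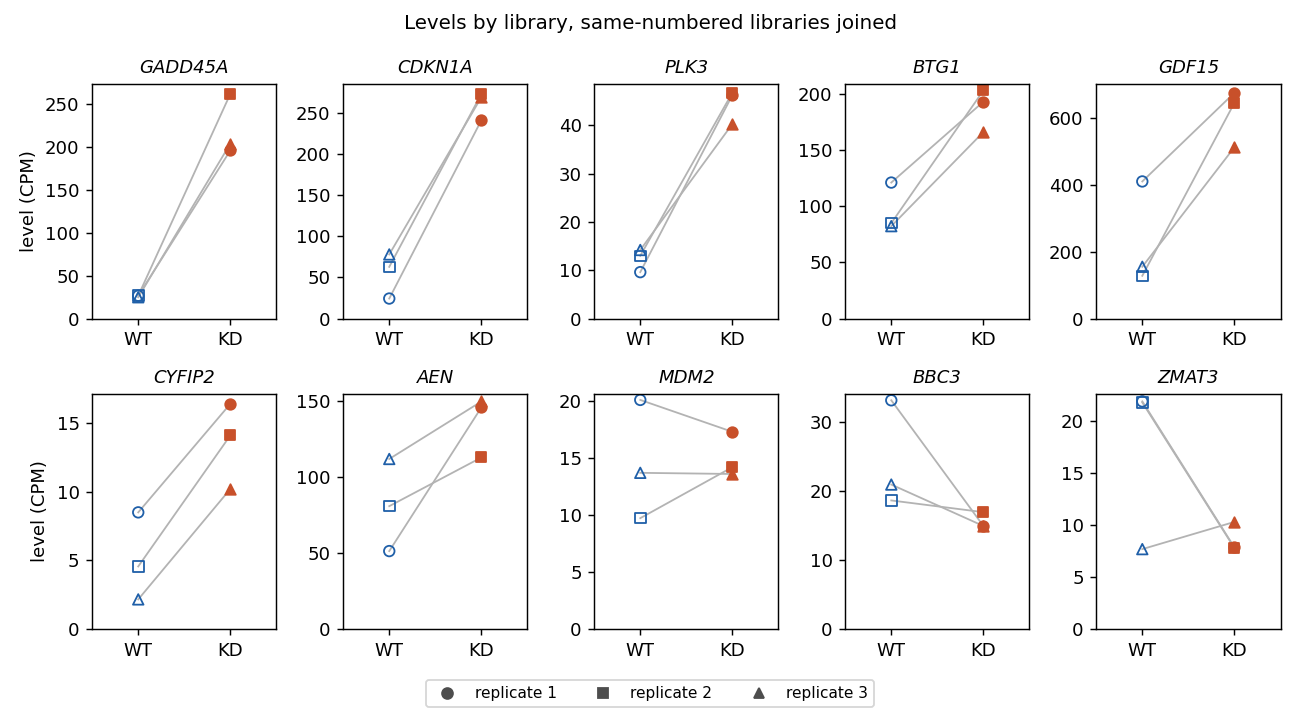
Level in CPM of 10 p53 target genes in WT and KD, each panel with its own axis from 0 and lines joining libraries of the same replicate number. GADD45A, CDKN1A, PLK3, BTG1, GDF15, CYFIP2 and AEN are higher in KD for all 3 numbers, MDM2 and ZMAT3 are mixed, and BBC3 is lower for all 3.

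None of the 4 DNA repair and nucleotide supply genes was called by edgeR, without or with the block. At an unadjusted p under 0.05 there were 0 without the block and 1, DDB2, with it, against 2302 and 3574 of 15605 tested genes. XPC, which detects DNA distortions in nucleotide excision repair, was at 24.0, 24.4 and 23.3 CPM in WT and at 33.4, 29.9 and 27.8 CPM in KD. The KD libraries were all higher, with a log2 fold change of 0.35 (SE 0.21, adjusted p = 0.51). DDB2, which works with XPC on ultraviolet damage, was at 34.6, 58.1 and 68.5 CPM in WT and at 29.0, 43.5 and 46.5 CPM in KD. It was lower in KD for each replicate number, the conditions overlapped, and the log2 fold change was -0.44 (SE 0.29, adjusted p = 0.574). This change was -0.68 (adjusted p = 0.194) without WT replicate 1 and -0.25 (adjusted p = 0.816) without KD replicate 1. The translesion polymerase POLH was at -0.18 (SE 0.26). Its exons overlap the opposite-strand gene GTPBP2, whose expected counts averaged 3320 in WT and 8180 in KD. RRM2B, a subunit of ribonucleotide reductase, was at -0.62 (SE 0.50), and at -0.30 (SE 0.55) without WT replicate 1.

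The members tied to metabolism, autophagy and organelles were SESN1, DRAM1, FDXR and SPATA18, and 0 of the 3 tested were called by edgeR, without or with the block. At an unadjusted p under 0.05 there were 0 without the block and 1, FDXR, with it, against 2302 and 3574 of 15605 tested genes. FDXR, the mitochondrial ferredoxin reductase, was at 38.0, 33.4 and 40.9 CPM in WT and at 33.4, 26.3 and 22.5 CPM in KD. The lowest WT and the highest KD library were nearly equal, and the log2 fold change was -0.45 (SE 0.23, adjusted p = 0.411). SESN1, a sestrin that restrains mTORC1, had a log2 fold change of 0.62 (SE 0.78), which was 1.52 (SE 0.85, adjusted p = 0.409) without WT replicate 1. The autophagy gene DRAM1 had one of 0.03 (SE 0.29).

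GDF15 (chr19:18485541-18499986, plus strand), a secreted stress cytokine of the TGF-beta superfamily, was the most abundant member. It was at 410.5, 128 and 155 CPM in WT and at 676, 646 and 513 CPM in KD. WT replicate 1 was far above the other WT libraries but below every KD library. The log2 fold change was 1.40 (SE 0.40, adjusted p = 0.124, edgeR) over all libraries, 2.10 (adjusted p = 0.00107) without WT replicate 1, and 2.04 (SE 0.19, adjusted p = 0.00144) without replicate 1 of both conditions. With the replicate block it was 1.60 (SE 0.26, adjusted p = 0.0038). The adjusted p was 0.00326 by DESeq2 and 0.0476 by limma-voom. NINJ1, a surface protein that ruptures the membrane of dying cells, had a log2 fold change of -0.30 (SE 0.21, adjusted p = 0.597).

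Of the remaining 4 members, 0 were called by edgeR. An unadjusted p under 0.05 was found in 1, ZMAT3, without the block and in 2, ZMAT3 and IER5, with it. This held for 2302 and 3574 of 15605 tested genes, respectively. ZMAT3, an RNA-binding zinc finger protein, was at 21.9, 21.8 and 7.68 CPM in WT and at 7.84, 7.78 and 10.3 CPM in KD. WT replicate 3 was as low as the KD libraries, and the log2 fold change was -0.99 (SE 0.41, adjusted p = 0.295). FBXW7, the substrate receptor of a ubiquitin ligase, and ANKRA2, an ankyrin repeat protein, had log2 fold changes of 0.72 (SE 0.54) and 0.85 (SE 0.52), with no overlap between the conditions. IER5, an immediate early gene, was at 0.36 (SE 0.30).

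Levels were set between genes only per length, as RPKM (CPM per kilobase of annotated exon). GDF15 ranked first among the members in both conditions, with a mean of 111 RPKM in WT and 293 in KD. GADD45A moved from rank 8 at 13.5 RPKM to rank 2 at 115 RPKM, and CDKN1A from rank 5 at 18.4 RPKM to rank 3 at 87.1 RPKM. BTG1 kept rank 4, at 19.8 and 38.6 RPKM. BAX went from rank 2 at 30.3 RPKM to rank 5 at 26.3 RPKM, and MDM2 stayed at rank 22, at 1.75 and 1.81 RPKM. In bulk RNA, a change in the share of cells that express a gene cannot be told apart from a change in the RNA of each cell.

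Regulators of p53 were examined next. Of 25 genes that modify or cooperate with p53, edgeR called 0 without the block, while DESeq2 called 2. Over all 15605 tested genes, DESeq2 called 979, either way. At an unadjusted p under 0.05, edgeR gave 2 of the regulators (8%) without the block, against 14.8% of all tested genes. With the block 2 were called, TP53RK as higher (4%) and RPL5 as lower (4%). Over all tested genes these shares were 5.1% and 4.42%. MDM4, the MDM2 relative that inhibits p53, was at 29.6, 8.62 and 8.48 CPM in WT and at 14.1, 7.85 and 10.4 CPM in KD. WT replicate 1 stood far above the rest, and the log2 fold change of -0.53 (SE 0.50, adjusted p = 0.732) turned to 0.32 without that library. TP53RK, a kinase reported to phosphorylate p53, had a log2 fold change of 1.02 (adjusted p = 0.0816, and 0.0268 with the block). RPL5, a ribosomal protein that can bind MDM2, was at -0.60 (adjusted p = 0.164, and 0.0304 with the block). SETD7 (-0.81) and TP53BP2 (0.38) were not called.

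Beyond the 36 members, 34 further genes described as p53 targets were examined, of which 28 were tested. Of these, 3 (10.7%) were higher and 0 lower without the block, 10 (35.7%) were higher and 0 lower with it, and the median log2 fold change was 0.43. Over all tested genes, 1.75% were higher without the block and 5.1% with it. The 3 called genes, IRF9, TRIM22 and PML, are all also induced by interferon. IRF9, the DNA-binding subunit of ISGF3, rose by a log2 fold change of 2.66 (SE 0.18, adjusted p = 6.49e-05), and TRIM22, an antiviral ligase, by 5.20 (SE 0.56, adjusted p = 0.00116). PML, the organizer of nuclear bodies that also recruit p53, was at 95.0, 198 and 158 CPM in WT and at 497, 642 and 652 CPM in KD, with a log2 fold change of 1.99 (SE 0.28, adjusted p = 0.00648). MR1, which presents vitamin metabolites to T cells, had one of 1.26 (adjusted p = 0.0745, and 0.0091 with the block). Among p53 targets that are also interferon-inducible, PMAIP1 included, 3 of 8 tested (37.5%) were called higher without the block and 6 (75%) with it, with a median of 1.26.

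Genes that p21 is known to repress through the DREAM complex, which silences cell cycle genes, were counted next. Of 40 such genes, 12 fell and 0 rose without the block, and 28 fell with it. Without the block all 40 had a log2 fold change below 0, with a median of -1.03. CDC25A was at -0.02 without the block and at 0.05 with it. Over all tested genes, 0.839% fell without the block and 4.42% with it, and 52% had a log2 fold change below 0. The count of 12 was 3 without KD replicate 2, KD replicate 3 or WT replicate 3, 5 without KD replicate 1 and 6 without WT replicate 2. Their summed level was 4760.3, 5889 and 6609 CPM in WT and 2184, 2891 and 3487 CPM in KD. The mitotic kinesin KIF20A was at 89.3, 104 and 95.5 CPM in WT and at 10.4, 19.5 and 19.3 CPM in KD, and fell by 2.56 on the log2 scale (SE 0.27, adjusted p = 0.0011). TOP2A, the topoisomerase of dividing cells, fell by 2.22, HMGB2, a chromatin protein, by 1.66, and CENPA, the centromeric histone, by 1.99. The adjusted p of HMGB2 was 0.0808 without KD replicate 3, and that of CENPA was 0.0517 without KD replicate 2 and 0.0652 without WT replicate 3. The link between this list and the level of CDKN1A was not tested. Cell cycle progression was not measured in these libraries. The study recalls its earlier report that STAG2 knockdown had no apparent effect on the cell cycle or apoptosis of melanoma cells.

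The ATF4 list stands beside GDF15, BBC3 and PMAIP1, which are targets of both pathways. Over all tested genes, edgeR called 1.75% higher without the block and 5.1% with it. Of 14 ATF4 stress genes, it called 1 (7.14%) higher without the block and 6 (42.9%) with it. Without replicate 1 of both conditions, a setting chosen after seeing the data, it called 11 of them either way. In that setting 757 of 15991 tested genes were called. The median log2 fold change of the 14 genes was 0.73. Their summed level was 2524, 1082 and 1279.6 CPM in WT and 2865, 2700.5 and 2426 CPM in KD, so that WT replicate 1 stood near the KD libraries, as it did for CCNG1. PPP1R15A, a phosphatase subunit that restores translation after stress, rose by a log2 fold change of 1.12 (SE 0.18, adjusted p = 0.012). Its adjusted p was 0.058 and 0.0854 without KD replicates 2 and 3, and 0.0723 and 0.0556 without WT replicates 2 and 3. DDIT3, the stress transcription factor CHOP, was at 40.4, 11.8 and 11.6 CPM in WT and at 74.1, 54.0 and 45.8 CPM in KD, with a log2 fold change of 1.45 (adjusted p = 0.165, and 0.00276 with the block). TRIB3, a pseudokinase, had one of 1.54 (adjusted p = 0.0517, and 0.000522 with the block), and CEBPB, a bZIP transcription factor, one of 0.66 (adjusted p = 0.127, and 0.0206 with the block). Without WT replicate 1, DDIT3 was at 2.30 (adjusted p = 0.00151), TRIB3 at 2.07 (adjusted p = 0.000989) and CEBPB at 0.77 (adjusted p = 0.0581). The part of the ATF4 genes and of replicate 1 in the value of GDF15 was not tested.

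**Figure D4:**
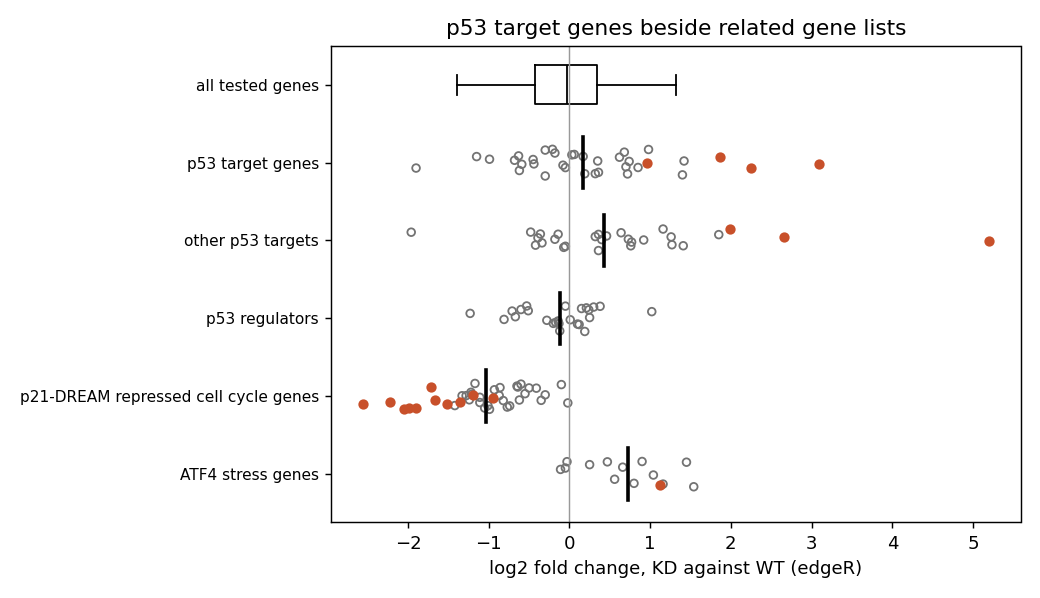
Log2 fold change in KD against WT for the p53 target genes and 4 related gene lists, each circle a gene, filled where the adjusted p is under 0.05, with vertical bars at the medians, and a box for all tested genes with quartiles and whiskers at percentiles 5 and 95. In the fit without the replicate block, the p53 target genes spread around a median of 0.17 with 4 filled circles, and all 40 p21-DREAM genes lie below 0.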

How the data were processed

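Polyadenylated RNA of M14 cells was made into directional libraries. The authors deposited expected counts per gene, not scaled between libraries, and the submitters' processing notes name STAR, RSEM and hg19. RSEM divides reads that match several genes. Rounded expected counts were filtered with filterByExpr (15605 of 57820, of which 33470 had no count in any library). KD was compared with WT by edgeR's quasi-likelihood test (edgeR 4.0.16, R 4.3.3) with TMM scaling, and p was adjusted by Benjamini-Hochberg across the tested genes. A gene was called at an adjusted p under 0.05. The script was tested on simulated data. CPM are TMM-scaled, and RPKM use the union of exons in GENCODE on GRCh37. Response elements and gene positions were read from GRCh37, and promoters from RefSeq.

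Deviations from the condition means of libraries with the same number correlated at 0.473, 0.294 and 0.259 over 12743 genes, and replicates 2 and 3 also correlated across numbers (0.165 and 0.133), while replicate 1 correlated negatively with both. Every same-numbered correlation was over 0.1, so the numbers, which come from the sample titles, were used as the replicate block. Replicates 2 and 3 passed the same threshold across numbers, so it cannot show that same-numbered libraries are pairs. The titles do not say that they are. Alternatives were the replicate block, DESeq2 1.42.0, limma-voom (limma 3.58.1), upper-quartile scaling, no filter, a minimum of 10 counts per library, unrounded counts, rows of a symbol summed, an adjusted p under 0.01, leaving out each library, and, chosen after seeing the data, leaving out replicate 1 of both conditions. With 3 libraries against 3, the smallest exact permutation p is 0.1, so single values were tested in the fit across all genes.

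The members and all gene lists were chosen with earlier results of these data known. The members are given in full. Values in every library are given for members called without or with the block, for the 5 largest rises and 5 largest falls, and for STAG2, MDM2 and MDM4. A result that this rule names is not reported here. From each related list the 4 genes with the smallest p are named. Other genes shown by library were chosen after their values were seen.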

Additional observations from a re-analysis of the deposited data

How the results depend on the processing

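The number of p53 targets called higher, 4, became 7 with the replicate block and with no filter on low counts, 2 at an adjusted p under 0.01, and between 2 and 7 when single libraries were left out; the number called lower was 0 under every alternative run. Their median log2 fold change lay between 0.05 and 0.17 when single libraries were left out, and between 0.05 and 0.25 over all alternative fits. Over all genes, the 404 calls became 1486 with the replicate block, 1103 with no filter, 979 with DESeq2, 757 without replicate 1 of both conditions, 137 at an adjusted p under 0.01 and between 121 and 531 when single libraries were left out. The 12 calls in the p21-DREAM list became 28 with the block, 25 with no filter, 24 with DESeq2, 3 at an adjusted p under 0.01 and between 3 and 14 without single libraries. The 3 calls among other p53 targets became 10 with the block, 11 with no filter, 6 with DESeq2, 8 without replicate 1 of both conditions and 3 to 5 without single libraries. Among p53 regulators, 0 calls became 2 with the block and with DESeq2, and 1 with no filter. The single ATF4 call became 6 with the block, 5 with no filter, 4 with DESeq2, 2 with limma-voom and with at least 10 counts in every library, 11 without replicate 1 of both conditions, 0 at an adjusted p under 0.01, and 0 to 9 without single libraries. STAG2 ranged from -2.63 to -1.68 on the log2 scale when single libraries were left out, with adjusted p from 0.0183 to 0.168, and its adjusted p was lowest, at 1.2e-10, with no filter. MDM2 turned to -0.17 without WT replicate 2 and to -0.05 without KD replicate 1, and ranged up to 0.36. MDM4 ranged from -0.83 to 0.32, and was 0.10 without replicate 1 of both conditions. The cause of these changes was not tested. Without or with the block, the changes in CCNG1 and PMAIP1 did not pass the test over all libraries, although CCNG1 passed without WT replicate 1 and without replicate 1 of both conditions.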

Other observations

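LIF and TNFRSF10B, p53 targets outside the 36 members chosen after their values were seen, had no overlap between the conditions and were higher in KD. Of the 28 tested genes of their list, 10 (35.7%) were higher without overlap, against 11.8% of all tested genes. Another 2 (7.14%), PIDD and RAP2B, were lower without overlap, against 10.5%. LIF, a cytokine of the interleukin-6 family, was at 6.93, 34.6 and 31.6 CPM in WT and at 49.1, 72.7 and 73.4 CPM in KD. WT replicate 1 was the lowest library. The log2 fold change of LIF was 1.41 (adjusted p = 0.196) by edgeR without the replicate block, and 1.67 (adjusted p = 0.008) with it. The death receptor TNFRSF10B was at 70.4, 94.3 and 109 CPM in WT and at 119, 191 and 156 CPM in KD, with an adjusted p of 0.155 without the block and 0.0132 with it.

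EPHA2, a receptor tyrosine kinase, differed between the replicate numbers. It was at 1.64, 26.8 and 26.2 CPM in WT and at 2.77, 5.72 and 5.51 CPM in KD, so that it was lower in KD for replicates 2 and 3 and not for replicate 1. Its log2 fold change was -1.96 (SE 0.79, adjusted p = 0.28) by edgeR.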
